A study of Mus musculus with 9 samples.

Results

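The ubiquitin and proteasome genes of the table were taken by name, as protein-coding genes with no transcription factor family given whose symbol begins with *Ube2*, *Ubr*, *Usp*, *Psm*, *Fbx*, *Rnf*, *Trim*, *Cul* or *Herc*. There were 71 of them among the 8329 genes of the table, of which 3477 are protein-coding. The choice by name also takes in *Ube2cbp*, which is named after the E2 enzymes but acts as a ligase. RNA was sequenced from CD45-Ter119-CD31-CD51+CD200+ cells sorted from adult WT C57BL/6J mice, in 3 groups of 3 libraries. The groups were bone marrow mesenchymal stem cells at steady state (BM-MSCs, day 0), periosteal skeletal stem cells at steady state (P-SSCs, day 0), and P-SSCs from a femur 3 days after it had been placed under the skin of a recipient mouse that had received no conditioning (graft P-SSCs). Mice differed between replicates, and by the labels replicate 2 is a pool in both steady-state groups, so within a group each library is a sample of its own mouse or pool. Whether marrow and periosteum libraries came from the same mice is not stated. The digestion of periosteum was longer than that of marrow, so the tissue and its digestion cannot be told apart. The gate does not separate cells of the donor femur from cells of the recipient.

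Ubiquitin is joined to a protein by a chain of enzymes. An E1 activates it, an E2 such as those of the *Ube2* family carries it, and an E3 ligase brings the E2 to the substrate. Cullins are scaffolds of the largest family of E3 ligases, F-box proteins are the exchangeable substrate receptors of one branch of that family, and many RING finger and tripartite motif (TRIM) proteins are ligases on their own. Ubiquitin-specific proteases (USPs) take ubiquitin off again. The 26S proteasome, which degrades many tagged proteins, is a 20S core of alpha and beta subunits capped by a 19S regulator that recognises ubiquitin and unfolds the substrate. Interferon signalling is known to exchange some beta subunits for others, which gives the immunoproteasome, and to raise the PA28 activator that can cap the core in place of the 19S regulator.

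The values are FPKM, or fragments scaled to transcript length and library size, and the library totals recovered from them were 16890241 to 21315438 fragments. Of the 71 genes, 61 were above 0 in at least 1 library and 10 were at 0 in all 9. The 10 were *Fbxo43*, *Fbxw13*, *Fbxw21*, *Fbxw22*, *Fbxw27*, *Trim60*, *Trim71*, *Ube2d2b*, *Ube2dnl2* and *Usp26*. A gene was tested if it had at least 1 FPKM in at least 3 libraries, which 49 of the 71 did, and 2 of the 49, *Rnf182* and *Trim29*, did so through the libraries of a single group. Within groups, Pearson's r between libraries across all genes tested was 0.858 to 0.992. The one stromal marker of the list in the table, *Postn*, had 90.6 to 124.7 FPKM in BM-MSCs, 390.5 to 476.4 in P-SSCs and 782.2 to 879.1 in graft P-SSCs. Blood cell markers were also present in these gated cells. The summed FPKM of the 6 markers in the table was 444.6 to 616.8 in BM-MSCs, 14.5 to 72.3 in P-SSCs and 33.5 to 93.7 in graft P-SSCs, and *Adgre1*, *Mpo*, *Ptprc* and *Cd79b* were at 0 in every P-SSC library. Between graft P-SSCs and P-SSCs, 2 of the 5 blood cell markers tested were called higher (22.6% of all genes tested), 0 lower, and all 5 had higher values in the grafts. The macrophage marker *Csf1r* had 0 to 2.68 FPKM in BM-MSCs, 0.248 to 0.835 in P-SSCs and 5.57 to 6.31 in graft P-SSCs (adjusted p = 0.00431 against P-SSCs, limma), and *Adgre1* had 0.907 to 2.75 in graft P-SSCs (adjusted p = 0.0413, limma). The part of these cells in the differences of graft P-SSCs given here was not tested. The erythroid gene *Hba-a2* had 617.9 to 2201 FPKM in BM-MSCs, 2.13 to 20.2 in P-SSCs and 0.531 to 3.67 in graft P-SSCs. None of the 10 endothelial markers was in the table, so RNA of endothelial cells could not be assessed. The muscle gene *Myl1* had up to 3.48 FPKM in BM-MSCs, 1.77 to 6.47 in P-SSCs and up to 0.405 in graft P-SSCs, and it was lower in graft P-SSCs than in P-SSCs (log2 fold change -1.79, adjusted p = 0.0306, limma). In bulk samples such as these, fewer cells of a type and less RNA per cell cannot be told apart.

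Of these genes, 7 to 17 were called different in a comparison, a smaller share than of all genes tested in this fit. The test was limma's, on log2(FPKM + 1), across the 1948 genes that passed the filter, and called genes are those whose adjusted p (Benjamini-Hochberg) was under 0.05. Between P-SSCs and BM-MSCs, 7 of the 49 genes were called, 3 higher and 4 lower in P-SSCs, where 24.2% of all genes tested were called (9.8% higher and 14.4% lower). Between graft P-SSCs and P-SSCs, 12 were called, with 10 higher in the grafts and 2 lower, where 34.1% of all genes were called (22.6% higher and 11.5% lower). Graft P-SSCs and BM-MSCs differed in 17 genes, 12 higher and 5 lower, against 41.9% of all genes (25.7% higher and 16.2% lower). The shares among the 49 genes were 14.3%, 24.5% and 34.7%. Without *Rnf182* and *Trim29*, which entered the test through the group in which they are high, the calls were 5 of 47 (2 higher and 3 lower), 11 of 47 (10 and 1) and 16 of 47 (12 and 4). These comparisons share groups, so their calls are not independent of each other. Groups without any overlap of libraries were seen for 8, 18 and 32 of the 49 genes, where the shares of all genes were 32.1%, 50.6% and 64.5%. In the comparison of graft P-SSCs with BM-MSCs, 22 of the 32 were higher and 10 lower, against 40.5% and 24% of all genes.

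**Figure D1:**
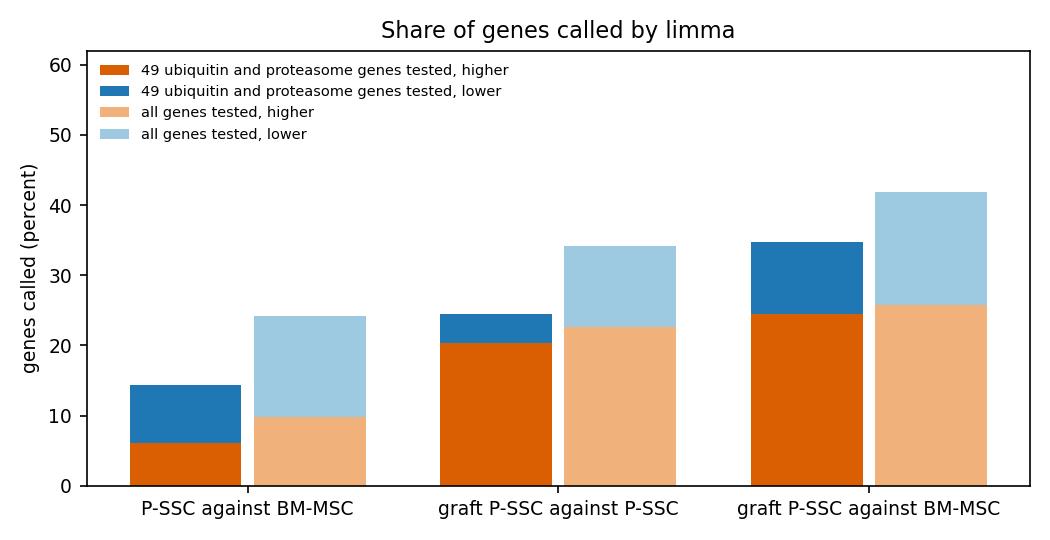
Percent of genes called higher or lower by limma (adjusted p under 0.05) in each of the 3 comparisons, for the 49 ubiquitin and proteasome genes tested and for all 1948 genes tested. In each comparison the stacked bar of the 49 genes, at 14.3%, 24.5% and 34.7%, is below that of all genes, at 24.2%, 34.1% and 41.9%.

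The median log2 fold change of the 49 genes was -0.14 between P-SSCs and BM-MSCs, 0.39 between graft P-SSCs and P-SSCs and 0.41 between graft P-SSCs and BM-MSCs. For all genes tested it was -0.06, 0.26 and 0.28, so that both comparisons with the grafts are shifted upwards for the whole table. Median-of-ratios scaling brought the medians of all genes to 0.00, 0.02 and 0.08, and quantile normalization to 0.03, -0.08 and -0.01. The medians of the 49 genes were then -0.07, 0.11 and 0.33 with median-of-ratios scaling, and 0.00081, -0.024 and 0.15 with quantile normalization, so that the median changed sign under quantile normalization for P-SSCs against BM-MSCs and for graft P-SSCs against P-SSCs. Scaling the libraries changed the balance of calls among the 49 genes, and that of all genes is not given here. With median-of-ratios scaling the calls among the 49 genes were 3 higher and 2 lower, 9 higher and 3 lower, and 9 higher and 8 lower in the same order, and with quantile normalization they were 3 and 3, 9 and 4, and 9 and 7. The shares called were 10.2%, 24.5% and 34.7% with median-of-ratios scaling, against 23.4%, 31.5% and 38.6% of all genes. With quantile normalization they were 12.2%, 26.5% and 32.7%, against 24.3%, 34.2% and 40.7%. No called gene changed its direction under either scaling. The counts also depended on single libraries. Without P-SSC replicate 3 they were 13, 22 and 26, or 26.5%, 44.9% and 53.1% of the 49 genes, where 30.4%, 45.8% and 53.3% of all genes were called. Without P-SSC replicate 2 the first was 11 (22.4%, against 24.3% of all genes). Without graft P-SSC replicate 1 the counts for the comparisons with the grafts were 7 and 11 (14.3% and 22.4%, against 23.1% and 28.6%), and without graft P-SSC replicate 2 the count against P-SSCs was 6 (12.2%, against 23.3%). For graft P-SSCs against BM-MSCs the share of these genes was above that of all genes without the filter (27.9% and 21.4%) and with only these groups in the fit (55.1% and 54.8%).

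**Figure D2:**
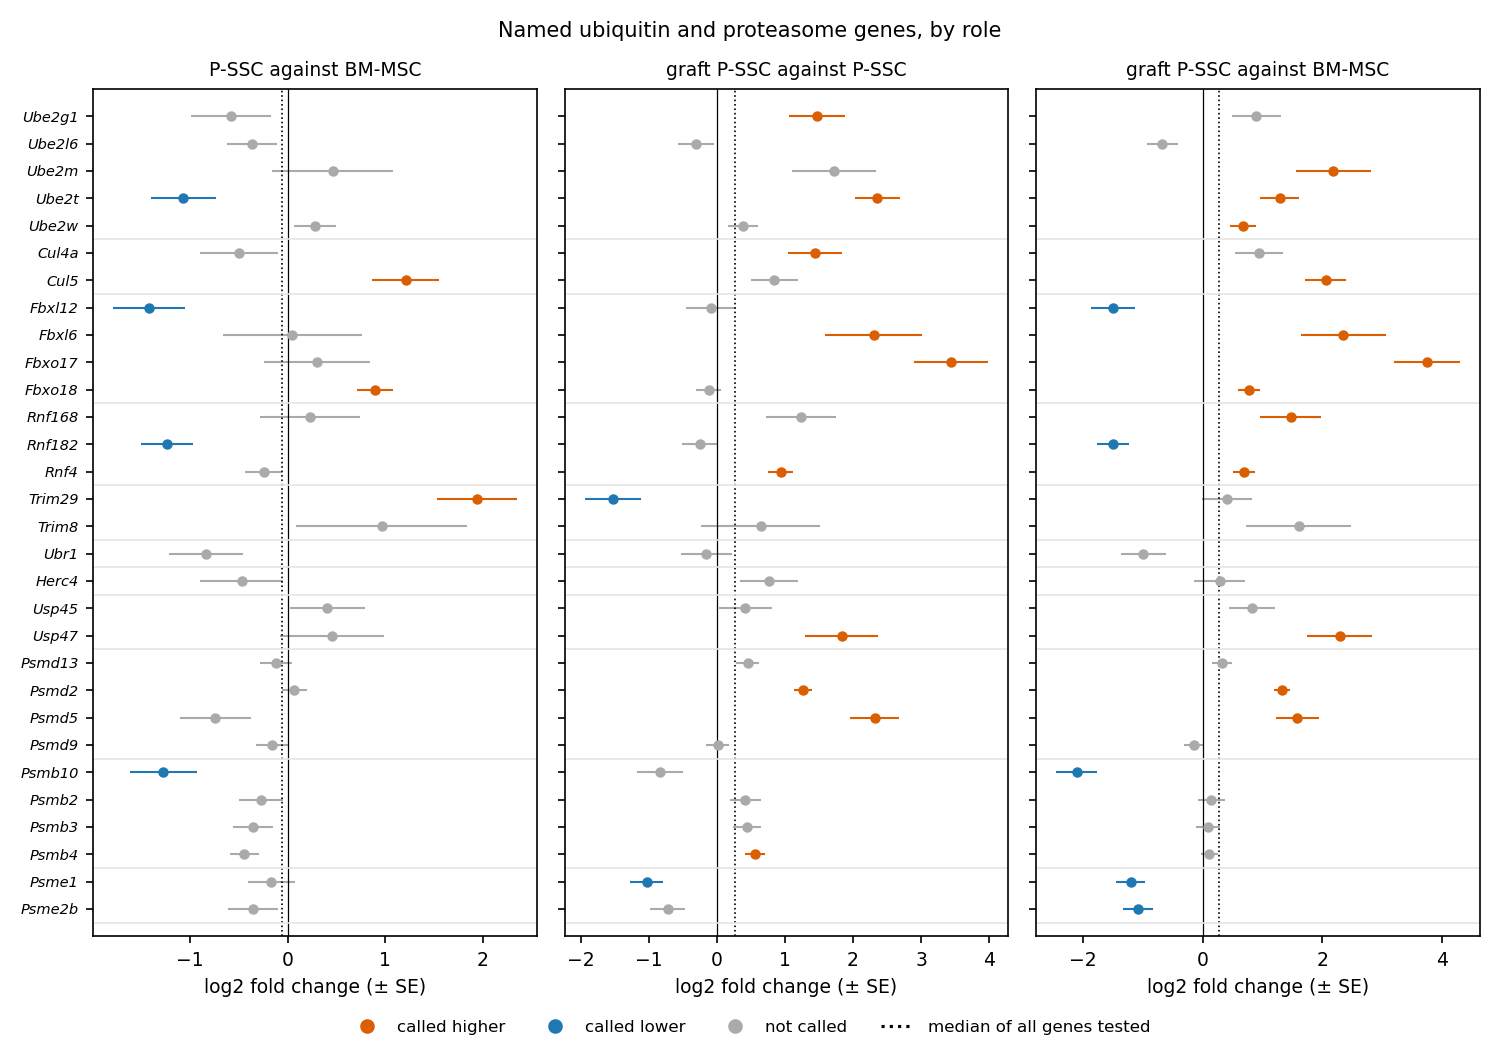
Log2 fold change on the log2(FPKM + 1) scale with its standard error for the 30 named genes (those called in any comparison, all proteasome genes, the highest of each role and *Usp45*), in each comparison, grouped by role from conjugating enzymes at the top to proteasome activators at the bottom. The dotted line is the median of all 1948 genes, at -0.06, 0.26 and 0.28, and *Fbxo17*, *Psmd5* and *Ube2t* lie farthest to the right in the comparison of graft P-SSCs with P-SSCs. *Rnf182* and *Trim29* are shown too, though each passed the filter through the single group in which it is high.

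The proteasome genes did not move together. In graft P-SSCs the 19S subunit gene *Psmd2* and the 19S assembly gene *Psmd5* were higher than in both steady-state groups, the PA28 activator gene *Psme1* was lower than in both, and the constitutive core genes *Psmb2* and *Psmb3* were not called in any comparison. The immunoproteasome subunit gene *Psmb10* was highest in BM-MSCs. The table holds 10 proteasome genes, all tested. They are 2 subunits of the 19S regulator (*Psmd2* and *Psmd13*), 2 chaperones of its assembly (*Psmd5* and *Psmd9*), 4 beta subunits of the 20S core and 2 activators, with no alpha subunit and no ATPase of the 19S base among them.

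*Psmd2* (ENSMUSG00000006998, GRCm38 chr16:20651652-20663414, plus strand) encodes Rpn1, a scaffold of the 19S base that binds ubiquitin receptors. It had 258, 247 and 269 FPKM in BM-MSC replicates 1, 2 and 3, 274, 240 and 301 in P-SSCs, and 635, 644 and 671 in graft P-SSCs. All 3 graft libraries were above all 6 others, and the steady-state groups overlapped. The log2 fold change of graft P-SSCs was 1.26 against P-SSCs (SE 0.13, adjusted p = 0.000102, limma), or 1.0 above the median of all genes, and 1.33 against BM-MSCs (SE 0.13, adjusted p = 4.43e-05, limma). *Psmd5* (chr2:34849734-34874968, minus strand) encodes a chaperone that assists the assembly of the 19S base and is not part of the finished proteasome. It had 20.7, 22.1 and 21.9 FPKM in BM-MSCs, 9.68, 7.67 and 25.7 in P-SSCs, and 63.4, 69.9 and 66.4 in graft P-SSCs. The graft libraries were again above all others, and P-SSC replicate 3 was above the other P-SSC libraries and all BM-MSC libraries. *Psmd5* rose by 2.32 against P-SSCs (SE 0.36, adjusted p = 0.00107, limma) and by 1.58 against BM-MSCs (SE 0.36, adjusted p = 0.00729, limma). Without P-SSC replicate 3, *Psmd5* was also called lower in P-SSCs than in BM-MSCs, with a log2 fold change of -1.23 (adjusted p = 0.00069, limma, against -0.74 and 0.187 with it, and 0.00069 to 0.419 over 18 other settings).

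The remaining genes of the 19S regulator and its assembly were not called in any comparison. *Psmd13*, which encodes the 19S lid subunit Rpn9, had 141 to 173 FPKM in P-SSCs and 212 to 226 in graft P-SSCs. The groups did not overlap, but its log2 fold change of 0.45 was not called (SE 0.16, adjusted p = 0.0597, limma). It was called in 4 of 18 other settings, among them those without BM-MSC replicate 1 or 3, with adjusted p-values of 0.0353 to 0.704 over all of them. Without BM-MSC replicate 3 it was called higher in graft P-SSCs than in BM-MSCs as well (0.47, adjusted p = 0.044, limma, against 0.134 with it, and 0.044 to 0.781 over 18 other settings). *Psmd9*, a second chaperone of the 19S base, had 41.7 to 61.4 FPKM in the 9 libraries and was not called. The exons of a noncoding gene on the other strand cover 25.5% of its exon bases, and the sources do not state whether the counting used the strand.

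The beta subunits gave 2 patterns. *Psmb2*, *Psmb3* and *Psmb4*, which belong to the standard core, were at 206 to 482 FPKM in every library, and P-SSC replicate 3 had the lowest value of all 3 genes. *Psmb4* was 0.56 higher in graft P-SSCs than in P-SSCs (SE 0.15, adjusted p = 0.0162, limma). Its call was lost with median-of-ratios scaling, where the difference was 0.23, with quantile normalization, without the trend and without graft P-SSC replicate 2 or 3 (adjusted p = 0.00762 to 0.466 over 18 other settings). Without P-SSC replicate 2, all 3 of these genes were called lower in P-SSCs than in BM-MSCs, at -0.54 to -0.57 with adjusted p-values of 0.0193 to 0.0389 (limma, and 0.0193 to 0.921 over 18 other settings). *Psmb2* and *Psmb3* were then also called higher in graft P-SSCs than in P-SSCs, at 0.69 and 0.66 (adjusted p = 0.0132 and 0.0179, limma, and 0.0132 to 0.859 over 18 other settings).

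*Psmb10* (chr8:105935735-105938444, minus strand) encodes beta2i, which replaces a standard catalytic subunit in the immunoproteasome. It had 329, 497 and 344 FPKM in BM-MSCs, 200, 235 and 84.0 in P-SSCs, and 91.8, 86.1 and 87.5 in graft P-SSCs. Every BM-MSC library was above every P-SSC library, and P-SSC replicate 3 was at the level of the grafts. The log2 fold change of P-SSCs against BM-MSCs was -1.27 (SE 0.34, adjusted p = 0.0219, limma) and that of graft P-SSCs against BM-MSCs was -2.10 (SE 0.34, adjusted p = 0.00106, limma). The first call was lost without BM-MSC replicate 2 (-1.08, adjusted p = 0.0841, limma), with median-of-ratios scaling, without the filter and with only these groups in the fit (adjusted p = 0.0086 to 0.0841 over 18 other settings). Between graft P-SSCs and P-SSCs *Psmb10* was not called at -0.83 (adjusted p = 0.0891, limma), and it was called without P-SSC replicate 3 at -1.28 (adjusted p = 0.00039, limma) and with quantile normalization (0.0404, and 0.00039 to 0.272 over 18 other settings). Blood cells are known to express immunoproteasome genes, and the summed blood cell markers were also highest in BM-MSCs. In BM-MSCs that sum is mostly *Lyz2* (142.8 to 608.4 FPKM) and, in replicate 1, *Mpo* (292 FPKM). Of the 5 markers tested, 1 was called higher (*Csf1r*) and 2 lower in graft P-SSCs than in BM-MSCs (25.7% and 16.2% of all genes). The summed FPKM of the 8 interferon response genes in the table was 136.9 to 264.5 in BM-MSCs, 52.5 to 113 in P-SSCs and 135.7 to 181.7 in graft P-SSCs. The part of either in the values of *Psmb10* was not tested.

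Both activator genes were lower in graft P-SSCs than in BM-MSCs, and *Psme1* was lower than in P-SSCs too. *Psme1* (chr14:55578123-55581529, plus strand) encodes PA28alpha. It had 235, 306 and 235 FPKM in BM-MSCs, 254, 306 and 154 in P-SSCs, and 115, 114 and 105 in graft P-SSCs, so that every graft library was below all 6 steady-state libraries. The log2 fold change was -1.03 against P-SSCs (SE 0.24, adjusted p = 0.00906, limma) and -1.20 against BM-MSCs (SE 0.24, adjusted p = 0.00356, limma). *Psme2b*, a copy of the PA28beta gene *Psme2*, had 18.3 to 24.2 FPKM in BM-MSCs, 13.5 to 23.5 in P-SSCs and 9.30 to 10.6 in graft P-SSCs. It was lower in graft P-SSCs than in BM-MSCs by a log2 fold change of -1.07 (SE 0.25, adjusted p = 0.00828, limma). Against P-SSCs the difference was -0.72 (adjusted p = 0.0519, limma), and it was called in 5 of 18 other settings, with adjusted p-values of 0.0153 to 0.153. As the copies can share reads, the value of *Psme2b* is uncertain.

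**Figure D3:**
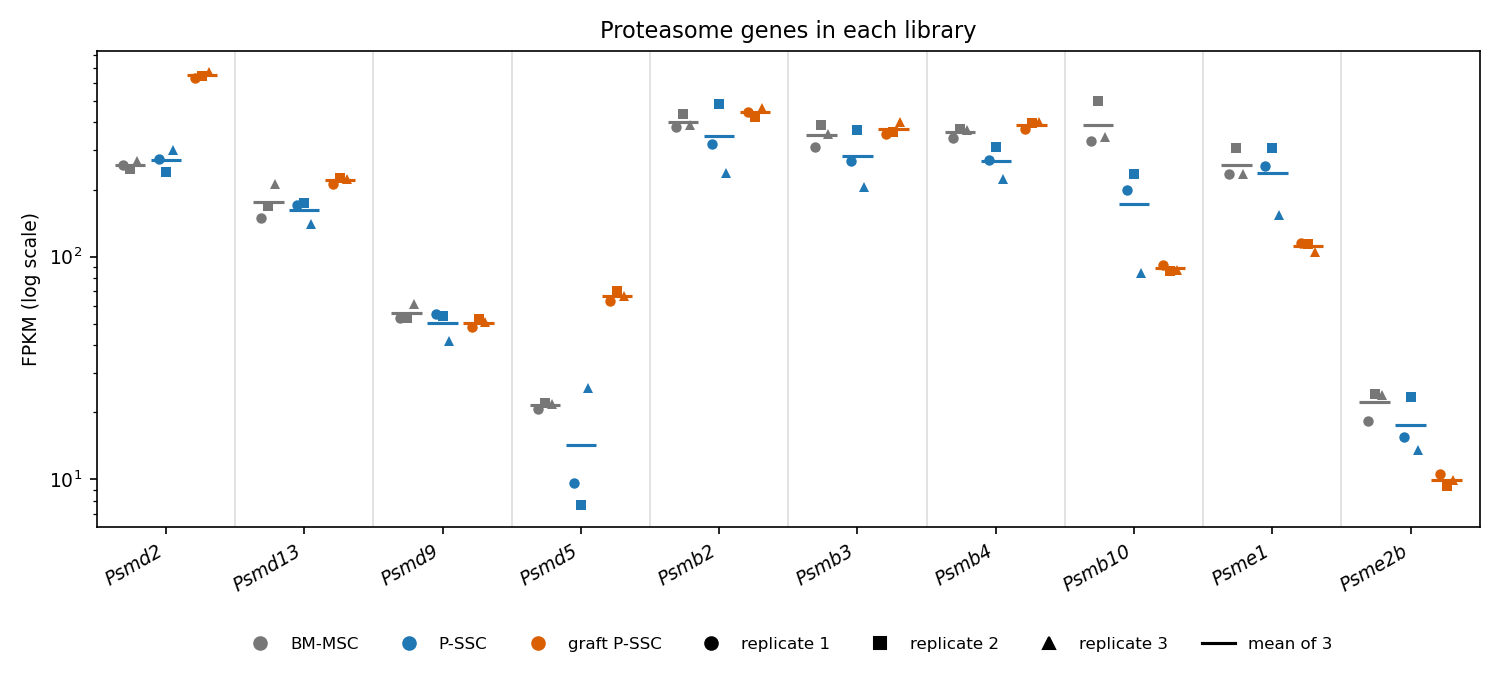
FPKM of the 10 proteasome genes in each of the 9 libraries, on a log axis, with colour for the group, symbol for the replicate and a line at the mean of 3 libraries. Graft libraries are above all others for *Psmd2* and *Psmd5* and below all others for *Psme1* and *Psme2b*, and P-SSC replicate 3 is level with the grafts for *Psmb10*.

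The levels were also set against the standard core genes of the same library, which takes out a scaling shared by all genes of a library. The mean of these 3 core genes was lowest in P-SSC replicate 3, at 222 FPKM, and 287 to 423 FPKM in the other libraries. *Psmb10* was at 104.1% ± 17.2 (SD, n = 3) of the mean FPKM of *Psmb2*, *Psmb3* and *Psmb4* in BM-MSCs, at 56.0% ± 16.4 in P-SSCs and at 22.0% ± 1.35 in graft P-SSCs. *Psme1* was at 69.3% ± 6.63 in BM-MSCs, 78.9% ± 9.69 in P-SSCs and 27.7% ± 2.43 in graft P-SSCs. The 19S gene *Psmd2* went the other way, with 69.7% ± 7.18, 97.6% ± 36.8 and 161.2% ± 2.38, and *Psmd5* had 5.81% ± 0.265, 5.64% ± 5.18 and 16.5% ± 1.08. P-SSC replicate 3 was between the other P-SSC libraries and the grafts for *Psmb10* (37.8%), *Psmd2* (135.4%) and *Psmd5* (11.6%). For *Psme1* it was at 69.1%, with the steady-state libraries. The gap between P-SSC replicate 3 and the grafts for *Psmb10* is in the ratios alone, as its FPKM there was below those of the grafts. These ratios are of FPKM, whose length is the mean of a gene's annotated transcripts, so their level depends on that length and only their differences between libraries are compared.

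**Figure D4:**
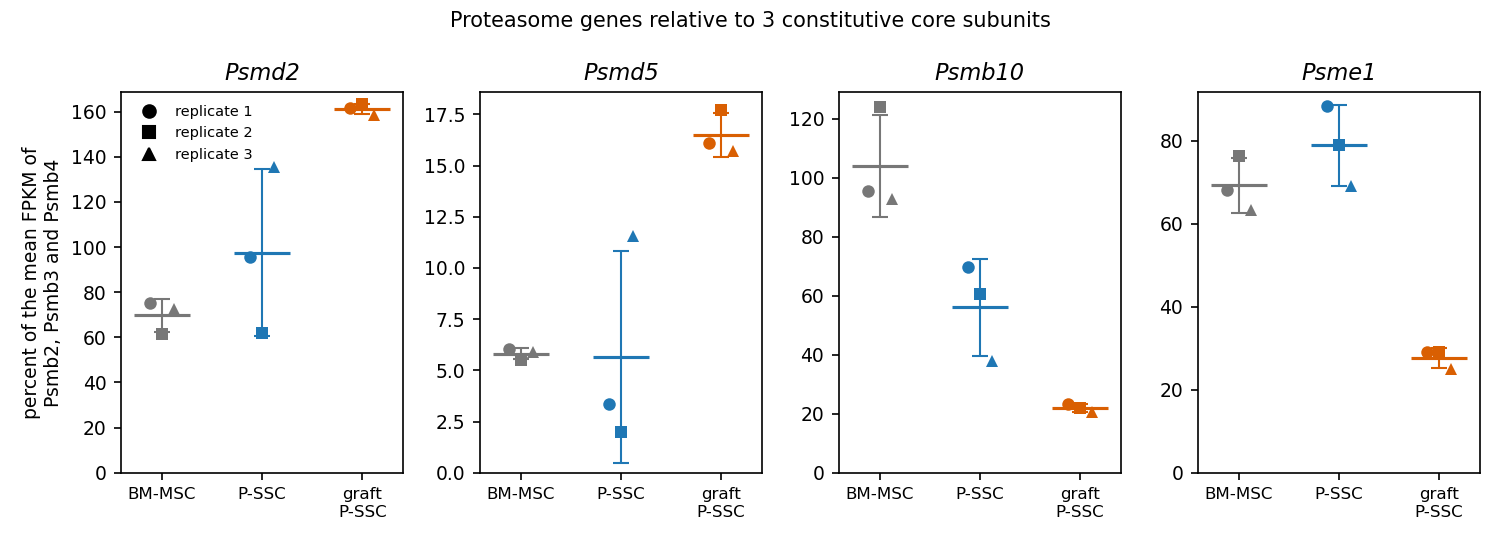
FPKM of *Psmd2*, *Psmd5*, *Psmb10* and *Psme1* in each library as a percent of the mean FPKM of *Psmb2*, *Psmb3* and *Psmb4* in that library, with the mean and SD of 3 libraries per group. The graft libraries lie within 158.6% to 163.3% for *Psmd2* and 20.7% to 23.4% for *Psmb10*, apart from both other groups.

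Promoter windows of RefSeq (GRCm38.p6, from 250 bases before to 50 bases after the start) were matched for 56 of the 71 genes, in 70 windows. They were searched on both strands for the core of an interferon response element (GAAA, any 2 bases, GAAA), CCAAT, the NF-Y box, TGACNNNGC, the core of an antioxidant response element, and TTTGAA, found in many cell cycle promoters. These letters can overlap other motifs. The interferon motif was in 3 of the 9 proteasome windows, those of *Psme1*, *Psmb3* and *Psmd9*, where 3.44% of all windows held it. CCAAT was in 1 of the 9 (37.4% of all windows), TGACNNNGC in 1 (12.4%) and TTTGAA in 0 (17.9%). Of all 70 windows, 6 held the interferon motif, 21 CCAAT, 10 TGACNNNGC and 14 TTTGAA. *Psme1*, which was lower in the grafts, and *Psmb3*, which was not called, both hold it, and the windows of *Psmb10*, *Psmd2* and *Psmd5* held none of the 4. The sequences of a gene of each kind are shown 5′ to 3′ on the plus strand, with motif matches in capitals. For *Psme1* it is the 30 bases from the RefSeq start (chr14:55578494-55578523), with the interferon motif on the minus strand, for *Psmb3* 215 bases upstream of the gene (chr11:97703184-97703398), with the interferon motif on the minus strand and 2 CCAAT boxes, and for *Psmd2* 250 bases upstream (chr16:20651402-20651651).
*Psme1*: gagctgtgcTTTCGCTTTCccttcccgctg
*Psmb3*: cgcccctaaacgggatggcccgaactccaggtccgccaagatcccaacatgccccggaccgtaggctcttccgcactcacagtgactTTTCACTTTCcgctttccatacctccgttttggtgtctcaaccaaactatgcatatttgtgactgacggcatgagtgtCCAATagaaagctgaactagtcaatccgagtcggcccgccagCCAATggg
*Psmd2*: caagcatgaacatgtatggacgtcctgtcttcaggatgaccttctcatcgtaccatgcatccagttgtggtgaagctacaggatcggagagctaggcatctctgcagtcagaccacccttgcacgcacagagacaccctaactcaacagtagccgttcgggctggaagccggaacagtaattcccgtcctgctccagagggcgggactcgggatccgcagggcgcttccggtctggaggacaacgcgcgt

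Among the conjugating enzymes, *Ube2t* was called in all 3 comparisons. Of the 8 genes named *Ube2*, which are 7 E2 genes and *Ube2cbp*, 6 were tested, and *Ube2cbp* was not called. In P-SSCs against BM-MSCs 0 rose and 1 fell (9.8% and 14.4% of all genes), 2 rose in graft P-SSCs against P-SSCs (22.6% of all genes) and 3 rose in graft P-SSCs against BM-MSCs (25.7%). *Ube2t* (chr1:134962565-134974162, plus strand) encodes the E2 of the Fanconi anemia pathway, which repairs DNA crosslinks. It had 1.47, 1.08 and 2.31 FPKM in BM-MSCs, 0, 0.849 and 0 in P-SSCs, and 6.39, 5.20 and 4.41 in graft P-SSCs. In fragments these were 27 to 56 in BM-MSCs, 0, 20 and 0 in P-SSCs and 105 to 150 in the grafts. The 3 groups did not overlap. The log2 fold change of graft P-SSCs was 2.36 against P-SSCs (SE 0.33, adjusted p = 0.000581, limma). The call of P-SSCs against BM-MSCs was weak, at -1.07 (SE 0.33, adjusted p = 0.0419, limma), and it was lost in 12 of 17 other settings (adjusted p = 0.0112 to 0.128), the replicate block among them (0.0873). Leaving out any library other than BM-MSC replicate 2 or P-SSC replicate 2 ended it, with adjusted p-values of 0.0618 to 0.128. The call of graft P-SSCs against BM-MSCs (1.29, SE 0.33, adjusted p = 0.0126, limma) was lost in 4, one of them without graft P-SSC replicate 1 (1.17, adjusted p = 0.0529, limma, and 0.00537 to 0.184 over 17 other settings). The same order of groups was seen in the genes of mitosis and S phase, of which the table holds 9. Their summed FPKM was 152 to 448.7 in BM-MSCs, 60.1 to 67.2 in P-SSCs and 925.6 to 979.4 in graft P-SSCs. Of these 9 genes, 7 were called lower in P-SSCs than in BM-MSCs (14.4% of all genes), 9 higher in graft P-SSCs than in P-SSCs (22.6%) and 8 higher in graft P-SSCs than in BM-MSCs (25.7%). Their part in the values of *Ube2t* was not tested. Its window held 3 CCAAT boxes in the 250 bases before the start (chr1:134962315-134962564, plus strand, 5′ to 3′, boxes in capitals).
*Ube2t*: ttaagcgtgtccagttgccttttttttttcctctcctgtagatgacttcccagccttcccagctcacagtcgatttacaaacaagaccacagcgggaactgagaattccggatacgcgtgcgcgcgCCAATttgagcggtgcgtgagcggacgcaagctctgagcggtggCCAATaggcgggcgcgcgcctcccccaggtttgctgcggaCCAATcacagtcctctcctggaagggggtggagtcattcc

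*Ube2m*, the main E2 of NEDD8, the ubiquitin-like protein that activates cullins, had 10.5, 8.50 and 4.79 FPKM in BM-MSCs, 6.61, 6.26 and 28.9 in P-SSCs, and 68.8, 43.5 and 18.1 in graft P-SSCs. The graft libraries differed among themselves, and graft P-SSC replicate 3 was below P-SSC replicate 3. It was called higher in graft P-SSCs than in BM-MSCs at 2.18 (SE 0.62, adjusted p = 0.0197, limma) and not against P-SSCs at 1.72 (adjusted p = 0.0583, limma). *Ube2g1* had 2.31, 2.05 and 7.32 FPKM in P-SSCs and 11.6, 13.2 and 9.12 in graft P-SSCs, a rise of 1.48 (SE 0.41, adjusted p = 0.0204, limma). *Ube2w*, which can ubiquitinate the N-terminus of a protein, rose from 12.5 to 19.4 FPKM in BM-MSCs to 23.2 to 27.9 in graft P-SSCs, by 0.67 (SE 0.22, adjusted p = 0.0339, limma). These 3 calls were lost when one of several libraries was left out, with differences of similar size. That of *Ube2m* was lost without BM-MSC replicate 2 or 3 or graft P-SSC replicate 1 or 2 (1.76 to 2.26, adjusted p = 0.051 to 0.082). That of *Ube2g1* was lost without P-SSC replicate 1 or 2 or graft P-SSC replicate 1 or 2 (1.22 to 1.45, adjusted p = 0.0632 to 0.0827), and that of *Ube2w* was lost without BM-MSC replicate 2 or 3 or any graft library (0.53 to 0.72, adjusted p = 0.0664 to 0.129) and with the replicate block (0.0556). The call of *Ube2w* was also lost with median-of-ratios scaling and quantile normalization, where its difference was smaller, at 0.43 and 0.34. The adjusted p-values over all 18 other settings were 0.00247 to 0.082, 0.000515 to 0.0827 and 0.019 to 0.311. The highest of the E2 genes was *Ube2l6*, the E2 of the interferon-induced modifier ISG15. It had 159 to 264 FPKM in BM-MSCs, 114 to 219 in P-SSCs and 116 to 142 in graft P-SSCs, and it was not called. The difference of -0.67 between graft P-SSCs and BM-MSCs (adjusted p = 0.0617, limma) was called in 6 of 18 other settings, among them those without BM-MSC replicate 2 or P-SSC replicate 1 or 3 (0.017 to 0.185 over all of them).

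All 3 cullin genes had their highest mean in graft P-SSCs, and every graft library was above all 6 others for each of them, where 31.5% of all genes were higher without overlap against P-SSCs and 40.5% against BM-MSCs. *Cul5* was called against BM-MSCs and *Cul4a* against P-SSCs, and *Cul3* in no comparison. *Cul5* (chr9:53614582-53670014, minus strand), the scaffold of ligases that use SOCS box receptors, had 1.37, 0.784 and 2.40 FPKM in BM-MSCs, 3.99, 3.66 and 6.65 in P-SSCs, and 10.1, 8.49 and 8.81 in graft P-SSCs. The 3 groups did not overlap. It was higher in graft P-SSCs than in BM-MSCs by 2.06 (SE 0.34, adjusted p = 0.00119, limma), in every setting, and in P-SSCs than in BM-MSCs by 1.21 (SE 0.34, adjusted p = 0.0277, limma). The second call was lost without BM-MSC replicate 1 or 2, without any graft library (adjusted p = 0.0544 to 0.078) or with only these groups in the fit (0.00841 to 0.109 over 18 other settings). Against P-SSCs the difference of *Cul5* in the grafts was 0.85 and not called (adjusted p = 0.0839, limma). *Cul4a*, the scaffold that works with DDB1, had 18.3, 11.9 and 43.8 FPKM in P-SSCs and 58.5, 59.9 and 60.7 in graft P-SSCs, beside 22.6 to 37.5 in BM-MSCs. Its rise of 1.44 against P-SSCs (SE 0.40, adjusted p = 0.0203, limma) was lost without P-SSC replicate 1 or 2 or any graft library (0.0586 to 0.0696) and with only these groups in the fit (0.000195 to 0.0696 over 18 other settings). Against BM-MSCs it was 0.95 and not called (adjusted p = 0.0839, limma). *Cul3*, the scaffold for BTB domain receptors, had 2.69, 0.436 and 2.32 FPKM in BM-MSCs, 2.17, 3.95 and 1.73 in P-SSCs, and 4.46, 5.27 and 4.25 in graft P-SSCs. The differences of 1.12 against BM-MSCs (SE 0.41, adjusted p = 0.0521, limma) and 0.69 against P-SSCs (SE 0.41, adjusted p = 0.227, limma) were not called.

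Of 16 F-box genes, 9 were tested, and *Fbxo17*, *Fbxl6*, *Fbxo18* and *Fbxl12* were called. P-SSCs had 1 called higher and 1 lower than in BM-MSCs (9.8% and 14.4% of all genes), graft P-SSCs had 2 higher and 0 lower than in P-SSCs (22.6% and 11.5%), and graft P-SSCs had 3 higher and 1 lower than in BM-MSCs (25.7% and 16.2%). *Fbxo17* (chr7:28716804-28738144, plus strand), of an F-box subfamily known for binding glycoproteins, had the largest rise of the 49 genes on the log2(FPKM + 1) scale, which understates the rise of lower genes such as *Ube2t*. It had 3.33, 1.02 and 2.89 FPKM in BM-MSCs, 1.37, 1.64 and 9.22 in P-SSCs, and 45.7, 40.6 and 41.3 in graft P-SSCs, with 1041 to 1215 fragments in the grafts. Every graft library was far above every other library. The log2 fold change was 3.44 against P-SSCs (SE 0.55, adjusted p = 0.00117, limma) and 3.75 against BM-MSCs (SE 0.55, adjusted p = 0.000543, limma), and both were called in every setting. *Fbxl6* had 5.55 to 9.40 FPKM in BM-MSCs, 2.22, 4.15 and 32.9 in P-SSCs, and 38.3, 39.3 and 41.7 in graft P-SSCs. P-SSC replicate 3 was near the grafts, far from the other P-SSC libraries. *Fbxl6* rose by 2.30 against P-SSCs (SE 0.71, adjusted p = 0.032, limma) and by 2.35 against BM-MSCs (SE 0.71, adjusted p = 0.0256, limma). The first call was lost without BM-MSC replicate 1, P-SSC replicate 1 or 2 or any graft library (0.0515 to 0.11), the second without BM-MSC replicate 1 or 2 or any graft library (0.0668 to 0.0813), and both without the filter. The first was also lost with only these groups in the fit. Without P-SSC replicate 3, *Fbxl6* was called lower in P-SSCs than in BM-MSCs, at -0.97 (adjusted p = 0.0319, limma), against 0.05 with it (adjusted p = 0.975, limma). Over 18 other settings the adjusted p-values of *Fbxl6* were 1.94e-05 to 0.11 against P-SSCs and 6.17e-05 to 0.0813 against BM-MSCs, and 0.0319 to 1 between the steady-state groups.

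*Fbxo18*, also known as Fbh1, is a DNA helicase that carries an F-box, and it was the highest of the group. It had 67.8, 47.5 and 51.5 FPKM in BM-MSCs, 112, 85.7 and 115 in P-SSCs, and 95.6, 92.2 and 98.1 in graft P-SSCs. Both periosteal groups were above BM-MSCs without overlap, by 0.90 at steady state (SE 0.18, adjusted p = 0.00543, limma) and by 0.78 in the grafts (SE 0.18, adjusted p = 0.00825, limma), and both calls held in all 18 other settings. *Fbxl12* went the other way, with 9.53, 8.59 and 13.3 FPKM in BM-MSCs, 1.57, 5.28 and 3.69 in P-SSCs, and 2.94, 2.97 and 3.08 in graft P-SSCs. The log2 fold changes against BM-MSCs were -1.42 in P-SSCs (SE 0.37, adjusted p = 0.0184, limma) and -1.50 in graft P-SSCs (SE 0.37, adjusted p = 0.00976, limma). The first call was lost without BM-MSC replicate 3 (-1.25, adjusted p = 0.0622, limma) and with only these groups in the fit (0.00845 to 0.0794 over 18 other settings). The exons of *Ubl5* on the other strand cover 37.1% of the exon bases of *Fbxl12*, so that without strand their reads cannot be told apart.

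Of 11 RING finger genes 7 were tested, and *Rnf4* and *Rnf168* were called, beside *Rnf182*, which is only described. P-SSCs had 0 called higher and 1 lower than in BM-MSCs (9.8% and 14.4% of all genes). Graft P-SSCs had 1 higher and 0 lower than in P-SSCs (22.6% and 11.5%). Against BM-MSCs they had 2 higher and 1 lower (25.7% and 16.2%). The lower calls are those of *Rnf182*. *Rnf4*, a ligase that targets proteins carrying SUMO chains, was the highest, with 111, 70.0 and 76.1 FPKM in BM-MSCs, 76.4, 65.2 and 70.9 in P-SSCs, and 138, 129 and 143 in graft P-SSCs. All graft libraries were above all others. It rose by 0.94 against P-SSCs (SE 0.19, adjusted p = 0.00408, limma), in every setting, and by 0.70 against BM-MSCs (SE 0.19, adjusted p = 0.0155, limma). The latter call was lost with both scalings and without BM-MSC replicate 2 or graft P-SSC replicate 1 or 3 (0.0555 to 0.058, and 0.00277 to 0.0883 over 18 other settings). *Rnf168*, which ubiquitinates histone H2A at DNA breaks, had 1.09, 0.546 and 0.733 FPKM in BM-MSCs, 0.740, 0 and 4.19 in P-SSCs, and 4.10, 4.16 and 3.52 in graft P-SSCs. It was higher in graft P-SSCs than in BM-MSCs by 1.47 (SE 0.51, adjusted p = 0.0432, limma), a call lost in 12 of 17 other settings (0.00104 to 0.176), among them those without any single library except P-SSC replicate 2 or 3 and the replicate block. Without P-SSC replicate 3 it was called against P-SSCs too, at 1.90 (adjusted p = 0.000721, limma, and 0.000721 to 0.273 over 17 other settings). *Rnf182* had 2.61, 1.41 and 1.62 FPKM in BM-MSCs, 0, 0.732 and 0 in P-SSCs, and 0, 0 and 0.0278 in graft P-SSCs. These are 200 fragments in the BM-MSC group and 1 in the graft P-SSC group. *Rnf182* passed the filter through the BM-MSC libraries alone, so that it had to be high there, and its values are given with no test.

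Of 10 TRIM genes 5 were tested. *Trim29*, which lacks the RING domain of most TRIM proteins, was at 0 in all BM-MSC libraries, at 1.19, 7.17 and 2.15 FPKM in P-SSCs and at 0.257, 0.391 and 0.337 in graft P-SSCs. P-SSCs had 253 fragments in all and graft P-SSC libraries 6 to 11 each. With a floor of 3 fragments over the BM-MSC group, the pooled fragments of *Trim29* were at least 80.5-fold higher in P-SSCs. This bound covers counting error only and not the spread between libraries. P-SSC replicate 2 held 168 of the 253 fragments, and without it the bound was 39.4-fold. *Trim29* passed the filter through the P-SSC libraries alone, so that it had to be high there, and its values too are given with no test. *Trim8* had the highest mean of the TRIM genes over all 9 libraries, at 7.71 FPKM beside 7.09 for *Trim11*, which was the higher of the pair in BM-MSCs (4.23 and 2.17). *Trim8* had 1.44, 2.41 and 27.3 FPKM in P-SSCs and 16.5, 12.3 and 2.86 in graft P-SSCs, with 1.97 to 2.49 in BM-MSCs. Its periosteal groups overlapped and it was not called.

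The ligases *Ubr1* and *Herc4* were not called in any comparison. *Ubr1*, a ligase of the N-degron pathway, had 19.04, 9.07 and 19.4 FPKM in BM-MSCs, 6.19 to 12.3 in P-SSCs and 5.25 to 8.43 in graft P-SSCs. Its libraries did not overlap between graft P-SSCs and BM-MSCs, and the difference of -0.99 was called in 6 of 18 other settings, among them both scalings and those without BM-MSC replicate 2 or P-SSC replicate 1 or 3 (adjusted p = 0.0586, limma, and 0.0226 to 0.191 over the others). Without BM-MSC replicate 2 it was also called lower in P-SSCs than in BM-MSCs, at -1.17 (adjusted p = 0.0473, limma, and 0.0473 to 0.337 over 18 other settings). *Herc4* had 3.89 to 14.8 FPKM in the 9 libraries.

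Of the 10 USP genes 6 were tested, and *Usp47* was the one called, higher in graft P-SSCs than in P-SSCs (22.6% of all genes) and than in BM-MSCs (25.7%). *Usp47* (chr7:112023504-112111661, plus strand), a protease known to act on DNA polymerase beta, had 9.12, 1.68 and 3.13 FPKM in BM-MSCs, 5.06, 2.88 and 11.3 in P-SSCs, and 25.4, 22.2 and 20.3 in graft P-SSCs. All graft libraries were above all others. The rise was 2.29 against BM-MSCs (SE 0.53, adjusted p = 0.00805, limma), in every setting, and 1.83 against P-SSCs (SE 0.53, adjusted p = 0.0254, limma). The second was lost without P-SSC replicate 1 or 2 or any graft library (0.0627 to 0.0856) and without the filter (0.0042 to 0.0856 over 18 other settings). *Usp45*, which acts on the repair endonuclease subunit ERCC1, had 0.893, 0.125 and 1.95 FPKM in BM-MSCs, 1.75, 2.13 and 0.706 in P-SSCs, and 1.84, 2.74 and 2.31 in graft P-SSCs, or 7 to 174 fragments. The groups overlapped and it was not called, with log2 fold changes of 0.41, 0.42 and 0.83 (SE 0.39) in the 3 comparisons. Without BM-MSC replicate 3 its difference between graft P-SSCs and BM-MSCs was called, at 1.17 (adjusted p = 0.0352, limma, against 0.112 with it, and 0.0352 to 0.334 over 17 other settings).

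**Figure D5:**
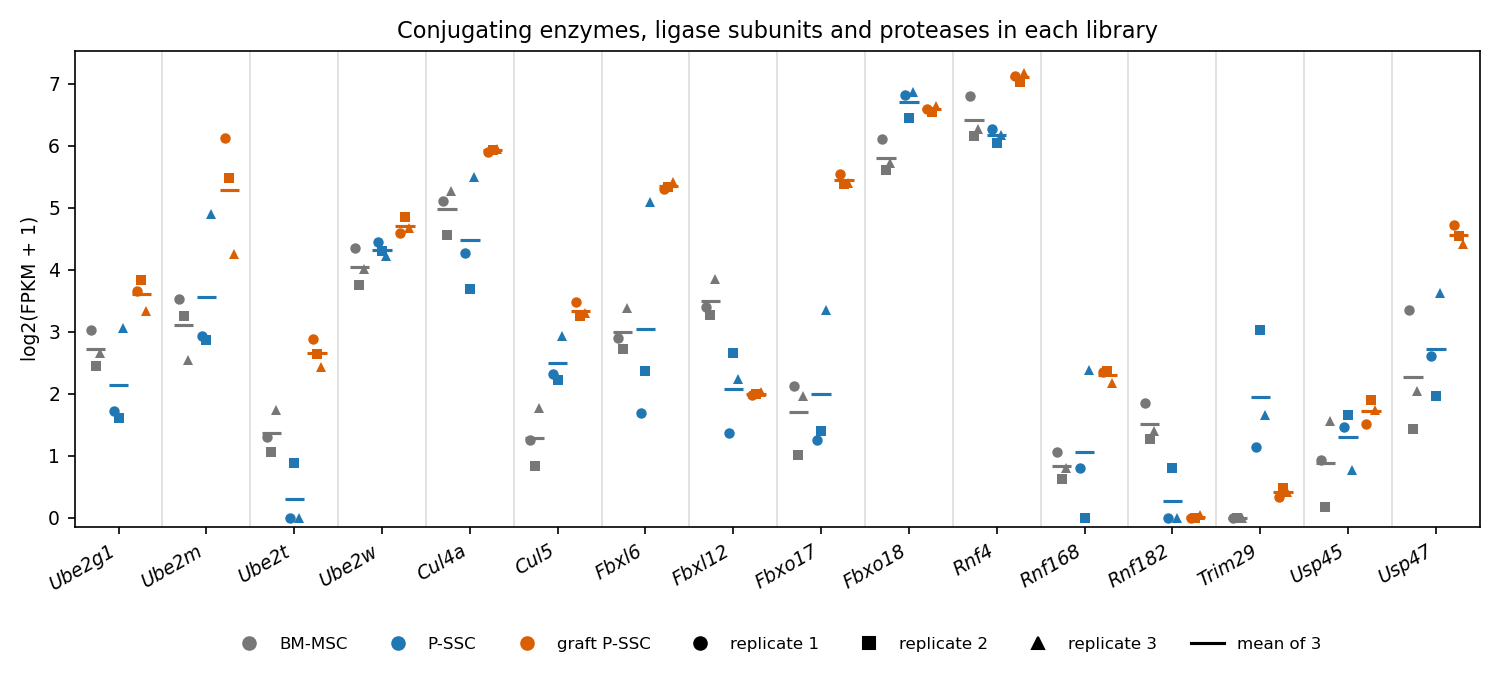
Log2(FPKM + 1) of the called conjugating enzymes, ligase subunits and proteases, and of *Usp45*, in each of the 9 libraries, with colour for the group, symbol for the replicate and a line at the mean of 3 libraries. The graft libraries stand above all others for *Ube2t*, *Fbxo17*, *Rnf4* and *Usp47*, and P-SSC replicate 3 is near them for *Fbxl6* and *Rnf168*. *Rnf182* and *Trim29* are shown too, though each passed the filter through the single group in which it is high.

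P-SSC replicate 3 often stood apart from the other P-SSC libraries. On the log2(FPKM + 1) scale it was nearer to the graft mean than to the mean of the other P-SSC libraries for 34 of the 49 genes (69.4%), where the share of all 1948 genes was 45.8%. This is a description of a single library, which the labels do not set apart. Among the named genes, calls that appeared without it included *Cul4a* lower in P-SSCs than in BM-MSCs (-1.0, adjusted p = 0.0142, limma, and 0.0142 to 0.87 over 18 other settings) and *Ube2g1* likewise (-1.04, adjusted p = 0.0253, limma, and 0.0253 to 0.625). In graft P-SSCs against P-SSCs they were *Psmb10*, *Psme2b* (-0.88, adjusted p = 0.0153, limma) and *Rnf168*, whose ranges are given above, *Cul5* (1.07, adjusted p = 0.0241, limma, and 0.0241 to 0.347), *Trim8* (1.74, adjusted p = 0.0298, limma, and 0.0298 to 0.989) and *Ube2m* (2.39, adjusted p = 0.0032, limma, and 0.0032 to 0.203). *Ube2m* was called there without graft P-SSC replicate 3 too (2.24, adjusted p = 0.032, limma). Against BM-MSCs, graft P-SSCs were then called higher in *Cul4a* (0.95, adjusted p = 0.00621, limma, and 0.00523 to 0.238 over 18 other settings), *Trim8* (1.61, adjusted p = 0.0233, limma, and 0.0233 to 0.392) and *Ube2g1* (0.90, adjusted p = 0.0179, limma, and 0.0179 to 0.261), and lower in *Ube2l6* and *Ubr1*.

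The 12 genes that were detected but not tested were *Fbxl21*, *Fbxo45*, *Rnf39*, *Rnf151*, *Rnf183*, *Rnf213*, *Trim5*, *Trim30b*, *Trim34b*, *Usp43*, *Usp49* and *Usp50*. *Usp43*, named here after its values were seen, had 2.87, 3.74 and 0.846 FPKM in BM-MSCs, 0 in all P-SSC libraries and 0.142, 0 and 0.12 in graft P-SSCs. These are 135, 196 and 43 fragments in BM-MSCs and 7, 0 and 6 in graft P-SSCs.

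Other genes of the ubiquitin system, from a list of 162, were in the table for 34 and tested for 33. In limma, 0 were called higher and 5 lower in P-SSCs than in BM-MSCs, 12 higher and 2 lower in graft P-SSCs than in P-SSCs, and 11 higher and 2 lower in graft P-SSCs than in BM-MSCs. The shares of all genes were 9.8% and 14.4%, 22.6% and 11.5%, and 25.7% and 16.2% in the same order. *Ubb*, a precursor of ubiquitin itself, fell in graft P-SSCs against P-SSCs. It had 2147, 2438 and 1441 FPKM in P-SSCs and 1133, 1174 and 1148 in graft P-SSCs, a fall by 0.77 (SE 0.20, adjusted p = 0.0138, limma). *Uba1*, the main E1 enzyme, went from 201 to 248 FPKM in P-SSCs to 282 to 309 in graft P-SSCs, a rise of 0.42 (SE 0.13, adjusted p = 0.0334, limma). Among the genes that rose were *Cdc20* and *Fzr1*, the activators of the anaphase-promoting complex, at 6.97 and 3.55 (adjusted p = 2.31e-05 and 0.00691, limma), and its subunits *Anapc15* and *Anapc4*, at 1.93 and 1.16 (adjusted p = 0.00127 and 0.0223, limma). Its subunits *Anapc10* and *Anapc16* were not called, at -0.14 and 0.21 (adjusted p = 0.704 and 0.406, limma). *Cand2*, a regulator that exchanges cullin receptors, was called higher in graft P-SSCs than in P-SSCs at 1.69 (adjusted p = 0.0029, limma) and was 1 of 3 genes tested from a list of 20 on the COP9 signalosome and cullin regulators. *Zfand5*, the 1 gene tested from a list of 34 on p97, shuttle factors and partners of the proteasome, was not called.

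Of 7 interferon response genes tested, from a list of 40, 0 were called higher and 2 lower in P-SSCs than in BM-MSCs, 3 higher and 0 lower in graft P-SSCs than in P-SSCs, and 2 higher and 2 lower in graft P-SSCs than in BM-MSCs. The shares of all genes were 9.8% and 14.4%, 22.6% and 11.5%, and 25.7% and 16.2% in the same order. *Oas1a*, *Oas2* and *Zbp1* rose in graft P-SSCs against P-SSCs, by 2.71, 2.01 and 1.94 (adjusted p = 0.00123, 0.00016 and 0.0069, limma). *Isg20* fell by 1.24 on the log2 scale in P-SSCs against BM-MSCs (adjusted p = 0.0425, limma). Of 3 heat shock and unfolded protein response genes tested, from a list of 28, *Hspe1* and *Dnaja1* rose and *Ddit3* fell in graft P-SSCs against P-SSCs, by 1.46, 0.84 and 0.94 (adjusted p = 0.0079, 0.0105 and 0.0126, limma). In that comparison 22.6% of all genes were called higher and 11.5% lower.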

How the data were processed

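The authors sequenced poly(A) RNA of 9 libraries and mapped it to GRCm38; per the submitters' processing notes the tools were CASAVA, fastp, STAR 2.6.1d and featureCounts 1.5.0-p3. Whether counting used the strand and the annotation release are not given in the sources used here. The deposited values are FPKM, as the authors computed them.

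Tested on the values, the authors' FPKM were divided by the mean length of a gene's annotated transcripts. With these lengths from GENCODE M21 and the library totals, all values of 3442 of the 3609 genes above 0 (95.4%) were whole fragments within 0.01. For the other 167, the smallest length that gave whole fragments was used. The depth, 16890241 to 21315438 fragments per library, limits low values, and intervals cover counting error only.

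FPKM were changed to log2(FPKM + 1), and groups were compared with limma 3.58.1 in R 4.3.3 (lmFit, contrasts, eBayes with a trend) in 1 fit of 9 libraries, for the 1948 genes with at least 1 FPKM in at least 3 libraries. Fold changes on this scale understate those of low genes. Benjamini-Hochberg adjustment was over all genes tested. The smallest exact two-sided permutation p for 3 against 3 is 0.1. The procedure was tested on simulated data. Alternatives changed the pseudocount (0.1), the filter (none or 5 FPKM), the scaling, the groups fitted together, the trend and a block for the replicate number, and left out each library. A fit of limma's voom to the recovered fragments was added after the data were seen.

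The genes and lists were chosen with earlier results of these data known. Genes named are those called in any comparison, all proteasome genes, the highest of each role group and *Usp45*; others named with values were chosen after their values were seen. Some genes are not reported here by name.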

Additional observations from a re-analysis of the deposited data

How the results depend on the processing

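Of 90 combinations of a named gene and a comparison, 36 were called, and 20 of these calls held in every other setting that could be run. The named genes include every one of the 49 that was called, so the share of 36 in 90 was set by that choice. Of all genes tested, 24.2%, 34.1% and 41.9% were called in the 3 comparisons. Among the calls of the named genes, 4 of the 36 and 3 of the 20 belong to *Rnf182* and *Trim29*, which passed the filter through a single group. With the fragment counts fitted by limma's voom, 7, 13 and 17 genes were called for P-SSCs against BM-MSCs, graft P-SSCs against P-SSCs and graft P-SSCs against BM-MSCs. These are 14.3%, 26.5% and 34.7% of the 49 genes, where 23.3%, 34.3% and 41.2% of all genes were called. With only the groups compared in the fit the count was 3 for the first (7 with all libraries) and 27 for the last (17 with all libraries), or 6.12% and 55.1% of the 49 genes, where 16.6% and 54.8% of all genes were called. Leaving out 1 library at a time gave 5 to 13, 6 to 22 and 11 to 26 genes. These are 10.2% to 26.5%, 12.2% to 44.9% and 22.4% to 53.1% of the 49 genes. The shares of all genes moved too, from 20.5% to 30.4%, 23.1% to 45.8% and 28.5% to 53.3%. The median log2 fold change of the 49 genes turned from -0.14 to 0.00081 for P-SSCs against BM-MSCs and from 0.39 to -0.024 for graft P-SSCs against P-SSCs with quantile normalization, which sets all libraries to the same distribution. Leaving out 1 library at a time, the medians ranged from -0.16 to 0.019, from 0.21 to 0.39 and from 0.28 to 0.54. For graft P-SSCs against BM-MSCs the median moved from 0.41 to 0.70 with a pseudocount of 0.1 and to 0.71 with voom. *Fbxl6* in P-SSCs against BM-MSCs turned from 0.05 to -0.97 without P-SSC replicate 3, and was 0.73 without P-SSC replicate 1; the cause was not tested.

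The values showed little sign of pairing by replicate number. Libraries with the same number deviated from their groups with correlations of -0.03 to 0.13 for P-SSCs and BM-MSCs, of -0.43 to -0.09 for grafts and P-SSCs and of -0.05 to 0.04 for grafts and BM-MSCs. With the replicate block, 6, 13 and 15 of the genes were called, or 12.2%, 26.5% and 30.6% of the 49, where 22.6%, 31.9% and 38.8% of all genes were called.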
